A study of Mus musculus with 6 samples.

Results

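The 8 genes described here encode enzymes that break down and build glycogen, the branched glucose store of muscle: Phkg1, Phka1 and Phkb of phosphorylase kinase, Pygm of glycogen phosphorylase, and Gys1, Ugp2, Gbe1 and Gyg of glycogen synthesis. They were chosen by name with earlier results of these libraries known, above all the low reading of Phkg1 in the knockdown, and by the strand on which their reads had been counted. All 8 had a row among the 46078 features of the count tables. With them belong the 3 features whose exons lie opposite to theirs on the other strand, Sumf2, Ruvbl2 and Gm12043. Because its difference drew attention to the group, Phkg1 is described with Sumf2 without a test.

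Glycogen is broken down when glycogen phosphorylase releases glucose units, and phosphorylase is switched on by phosphorylase kinase. That kinase is a complex of a catalytic gamma subunit with regulatory subunits such as alpha and beta, and it answers to calcium as well as to cyclic AMP. Synthesis runs through phosphoglucomutase, UDP-glucose pyrophosphorylase, glycogenin as the primer, glycogen synthase and the branching enzyme. In heart muscle the store serves as a reserve of fuel that is drawn on at high workload or in low oxygen.

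The samples were heart muscle cells of mice, isolated by perfusion of the heart. Acly-KD (n = 3) stands for cells in which Acly, the gene of ATP citrate lyase, was knocked down in mice with MyH6-Cas9, Cas9 under the heart muscle promoter of Myh6. The control group (n = 3) is labelled wildtype, and whether it carries Cas9 too, as well as strain, age, sex, the guides used and the number of animals, are not given in the sources used here. With no word on separate animals, a p-value here speaks only of the variation among libraries, part or all of which could be technical. Where 3 values of a group follow each other, they are those of replicates 1, 2 and 3.

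Reads counted in features numbered 271463 to 814765 per library, which was 2.81% to 3.07% of the uniquely aligned reads. Abundant genes had low counts at their own rows and high ones in the feature opposite (for Gnas 361 against 96860 reads over the 6 libraries), as exchanged strands would give. Each gene was therefore read in both ways, at its own row as deposited and, where possible, through the feature on the other strand (here called the reading of mRNA, 140295 to 445228 reads per library). Acly had 0, 0 and 0 reads at its own row in Acly-KD and 1, 5 and 6 in control. If the strands are exchanged, this row does not count Acly mRNA, so it is then no measure of the knockdown. The limit that a count of 0 allows, 3 reads, corresponds to 3.75 to 7.33 CPM (the usual depth-normalised count, scaled by TMM) in the Acly-KD libraries. The 9 heart muscle markers all had reads, and their summed level at their own rows was 4202 to 15079 CPM in Acly-KD and 11085 to 14215 CPM in control. The 4 of them with no opposite exons summed to 1371 to 4785 CPM in Acly-KD and 3926 to 4570 CPM in control. Summed endothelial markers spanned 7.68 to 71.2 and 21.6 to 40.1 CPM, fibroblast markers 16.9 to 26.9 and 12.9 to 24.8 CPM, pericyte and smooth muscle markers 41.5 to 117 and 91.0 to 104 CPM, immune markers 75.7 to 96.7 and 87.4 to 119 CPM, and haemoglobin genes 6.14 to 17.1 and 11.5 to 29.6 CPM. Of the immune markers Ptprc and Cd3e were at 0 in all libraries. Those with no opposite exons summed to only 0 to 6.25 CPM in Acly-KD and 5.75 to 25.5 CPM in control. Most immune marker reads thus came from rows with opposite exons, which can hold reads of other genes if the strands are exchanged. Reads given to Xist, the RNA of the inactive X chromosome, were 0 in 4 libraries and were found in control replicate 2 (149) and control replicate 3 (137), so the groups differ in this respect as well.

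What each gene's reading can hold depends on how it meets the feature on the other strand. Phkg1 (chromosome 5, 129863421 to 129898549, minus strand, mm10) runs tail to tail into Sumf2, which encodes a protein of the sulfatase-modifying factor family (129846986 to 129864050). They share 630 bases of exon, all of it 3′ untranslated and present in 1 of the 6 annotated transcripts of Phkg1. Gys1 (chromosome 7, 45434844 to 45456619, plus strand) lies head to head with Ruvbl2, which encodes an ATPase of chromatin remodelling complexes. They share 310 bases, of which 138 are coding in Gys1, and Ruvbl2 also shares exon with Lhb. The overlap with Gys1 was 69.2% of the total for Ruvbl2, under the 80% asked for, so Ruvbl2 was not counted as a reading of Gys1 mRNA. Ugp2 (chromosome 11, 21321138 to 21371201, minus strand) shares 78 bases of a 5′ untranslated exon with Gm12043, a processed transcript that starts within it. Those 78 bases are 2.80% of the exons of Gm12043, against 23.6% for Sumf2 and 10.7% for Ruvbl2.

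**Figure D1:**
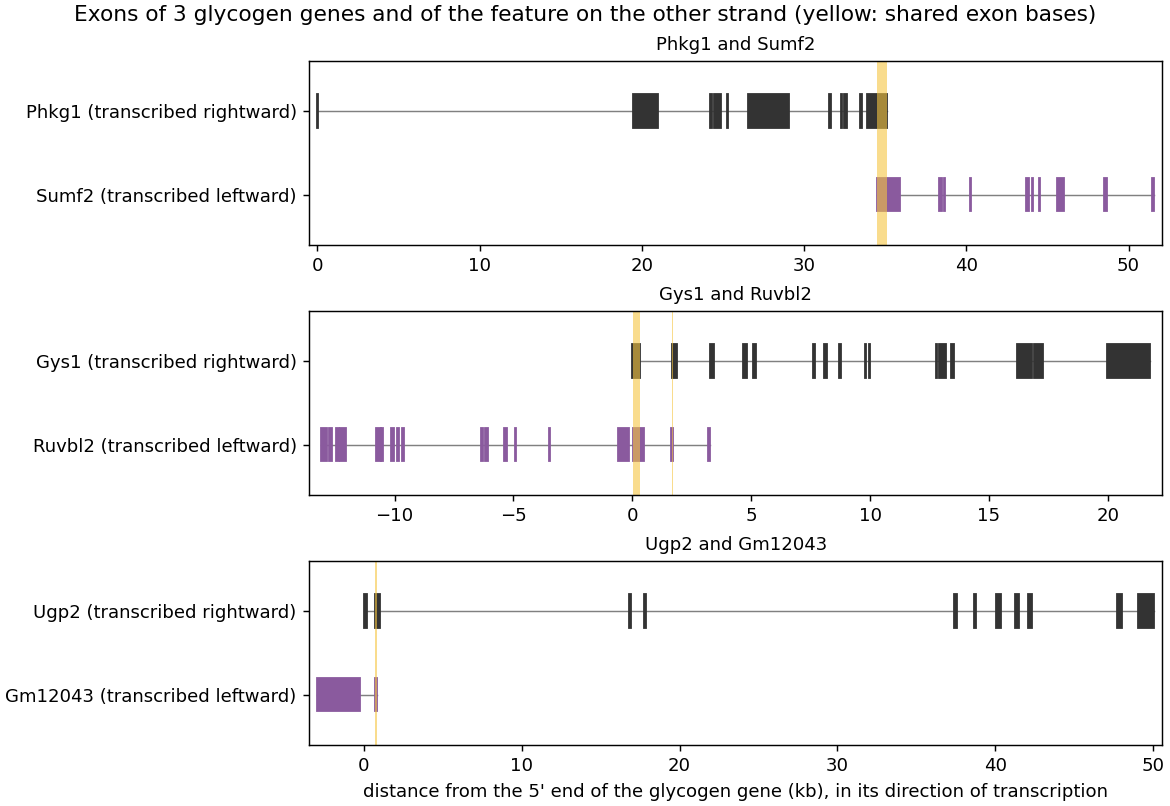
Exons (boxes) of Phkg1, Gys1 and Ugp2 and of the feature on the other strand, against the distance in kb from the 5′ end of the glycogen gene; yellow marks the shared exon bases. The shared stretch lies at the 3′ end of Phkg1 (630 bases) and near the 5′ ends of Gys1 (310 bases) and Ugp2 (78 bases).

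A coding part of the exon bases shared with the feature on the other strand is shown for Gys1, Pgm1 and Phkg2. Shared untranslated bases, such as those of Phkg1 and Sumf2, can hold a gene's message as well and are not shown. The first line is the coding part of the first coding exon of Gys1 that Ruvbl2 overlaps (chr7:45435053-45435170, plus strand), and the second is the same for Pgm1, a phosphoglucomutase gene opposite to Itgb3bp (chr4:99929566-99929811, plus strand), each with its start codon in capitals. The third is a coding stretch of Phkg2, the second catalytic subunit gene of phosphorylase kinase, within the overlap with Ccdc189 (chr7:127582736-127583026, plus strand). All are from GENCODE M21 transcripts, 5′ to 3′.
Gys1: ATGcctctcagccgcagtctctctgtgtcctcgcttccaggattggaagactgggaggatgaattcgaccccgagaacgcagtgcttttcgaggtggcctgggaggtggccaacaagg
Pgm1: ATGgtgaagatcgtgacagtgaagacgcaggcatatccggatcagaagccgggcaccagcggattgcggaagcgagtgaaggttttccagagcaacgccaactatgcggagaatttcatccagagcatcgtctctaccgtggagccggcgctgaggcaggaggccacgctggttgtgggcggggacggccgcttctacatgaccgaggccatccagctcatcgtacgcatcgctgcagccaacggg
Phkg2: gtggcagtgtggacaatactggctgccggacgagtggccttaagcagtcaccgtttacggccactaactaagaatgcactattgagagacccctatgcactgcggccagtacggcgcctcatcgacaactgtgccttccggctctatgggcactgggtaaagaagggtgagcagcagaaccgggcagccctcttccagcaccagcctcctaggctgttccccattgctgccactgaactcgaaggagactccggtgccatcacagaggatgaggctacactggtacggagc

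For Ugp2 1 of its 2 promoter windows in RefSeq (GRCm38.p6, chr11:21371218-21371517, minus strand) is shown instead, because exon bases of Gm12043 lie in it. The other window (chr11:21370580-21370879) holds 0 of them. The 58 bases in capitals belong to the larger exon of Gm12043, which extends upstream of Ugp2, away from its message.
Ugp2: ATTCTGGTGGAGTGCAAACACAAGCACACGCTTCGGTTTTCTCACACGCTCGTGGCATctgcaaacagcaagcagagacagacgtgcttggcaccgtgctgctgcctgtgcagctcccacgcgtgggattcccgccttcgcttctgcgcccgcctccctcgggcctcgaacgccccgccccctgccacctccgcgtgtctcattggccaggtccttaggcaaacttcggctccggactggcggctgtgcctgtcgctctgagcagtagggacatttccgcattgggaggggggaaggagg

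Phkg1, the catalytic subunit of phosphorylase kinase in muscle, was read at a lower level in the Acly-KD libraries than in control. The reads given to it, all counted in the Sumf2 row, numbered 44, 23 and 61 in Acly-KD and 31, 126 and 120 in control. In the reading of mRNA these were 123, 105 and 154 CPM in Acly-KD and 221, 293 and 327 CPM in control. All 3 Acly-KD libraries lay below all 3 controls, and the control nearest to them was replicate 1, the smallest library and the control without Xist reads. Group means were 127 ± 25.0 CPM in Acly-KD and 280 ± 54.4 CPM in control (SD, n = 3 each). This is 2.21-fold higher in control, or -1.14 as the log2 fold change of Acly-KD over control (SE 0.24). Groups did not overlap for 14.7% of the 1453 genes tested in this reading. As deposited, within all features, Sumf2 had a log2 fold change of -1.12 (SE 0.25), and groups did not overlap for 11.4% of the 2952 features tested. In such bulk libraries fewer cells of a type and less RNA per cell cannot be told apart. With control replicates 2 and 3 left out, which sets 3 Acly-KD libraries against 1 control assumed to vary like them, the log2 fold change of Phkg1 was -0.76 (SE 0.43) and that of Sumf2 -0.68. What part the difference in Xist reads has in this was not tested. Most of the exon bases of Sumf2 are not shared with Phkg1, and reads of Phkg1 and reads of another transcript antisense to Sumf2 cannot be told apart. If the strands are not exchanged, these are reads of Sumf2 itself and not of Phkg1.

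The row of Phkg1 itself held few reads and did not show the same order. It had 5, 8 and 5 reads in Acly-KD and 2, 6 and 5 in control, or 7.68, 19.5 and 6.25 CPM against 7.28, 7.10 and 7.19 CPM. The groups overlapped there. Reads of Sumf2 mRNA from the shared stretch would be counted in this row if the strands are exchanged, so it is no second measure of Phkg1.

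The second catalytic subunit gene, Phkg2, is known for its role in liver. Phkg2 was read through Ccdc189, with 876 shared bases, 25.6% of the exon bases of Ccdc189. Reads from the rest may belong to other transcripts. Phkg2 read 187, 246 and 270 CPM in Acly-KD and 228, 200 and 194 CPM in control. The groups overlapped, and the log2 fold change was 0.20 (95% interval -0.27 to 0.66, adjusted p = 0.878 in edgeR). It moved to 0.07 without Acly-KD replicate 3 and to 0.35 without Acly-KD replicate 1. Since both subunits are counted in the same library, the number of Phkg1 reads per Phkg2 read does not depend on how libraries are scaled. This ratio was 0.657, 0.426 and 0.570 in Acly-KD and 0.969, 1.47 and 1.69 in control, or 0.551 ± 0.117 against 1.37 ± 0.369 (SD, n = 3 each). Every Acly-KD library lay below every control, again with control replicate 1 the nearest. As the ratio contains the reads of Phkg1 that drew attention to these genes, no test is given for it, and it is no second measure of the difference. How many other pairs of genes separate the groups in this way was not counted.

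**Figure D2:**
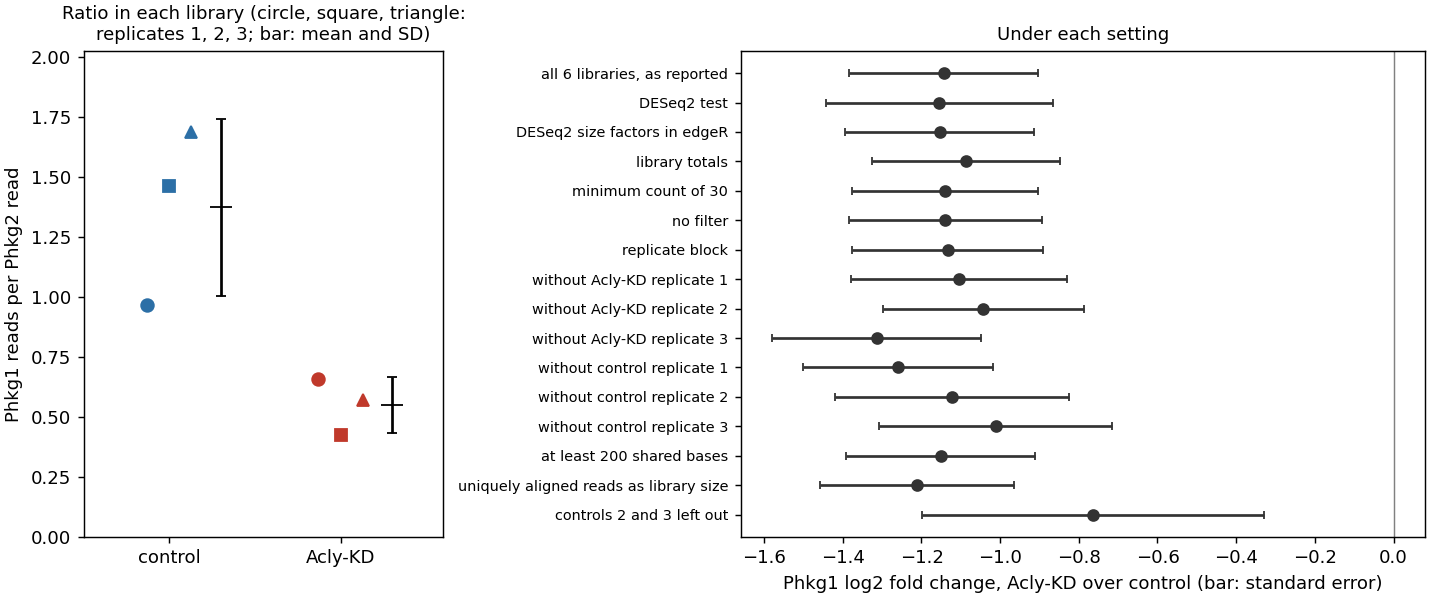
Left, Phkg1 reads per Phkg2 read in each library, by group. Right, the log2 fold change of Phkg1 (Acly-KD over control) with its standard error under each setting; it ran from -1.31 to -0.76, with the value nearest to zero where control replicates 2 and 3 were left out.

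Phka2, an alpha subunit gene of the X chromosome best known in liver, was read through 115 bases shared with Gm15243. These are 30.1% of the exon bases of Gm15243, and reads from the rest may belong to other transcripts. Phka2 read 83.8, 59.3 and 101 CPM in Acly-KD and 157, 55.7 and 123 CPM in control. Its groups overlapped, and the log2 fold change was -0.33 (95% interval -1.07 to 0.41, adjusted p = 0.869 in edgeR). It was -0.09 without control replicate 1, -0.18 without Acly-KD replicate 2 and likewise without control replicate 3, -0.50 without Acly-KD replicate 3, -0.72 without control replicate 2, and -0.90 without control replicates 2 and 3, the libraries with Xist reads.

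**Figure D3:**
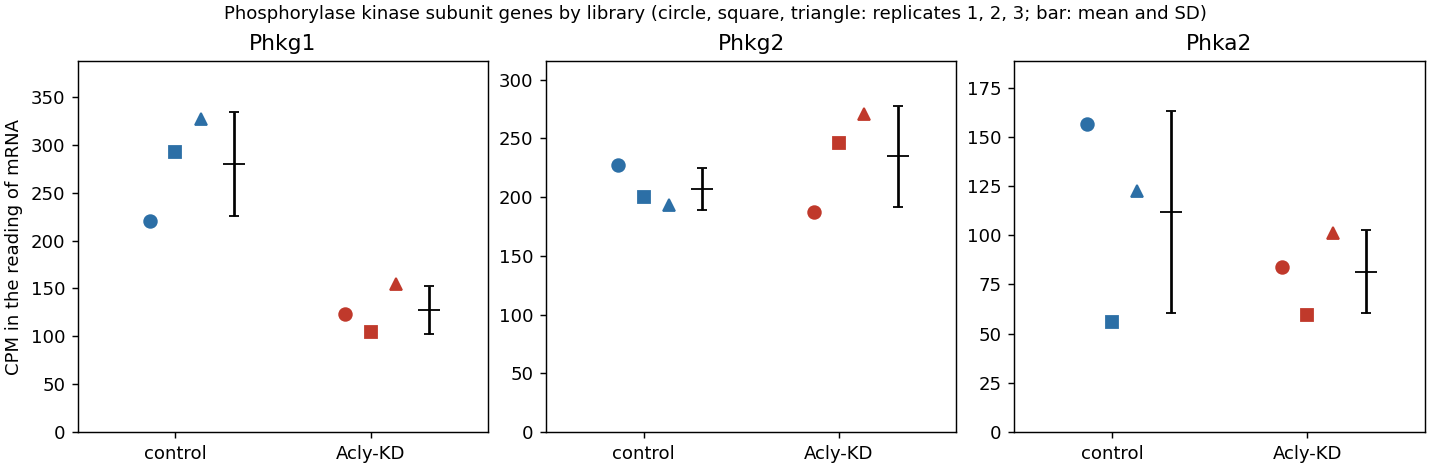
CPM in the reading of mRNA (y axis, from 0) of 3 phosphorylase kinase subunit genes in each library; bars give the mean and SD of each group. Phkg1 is lower in all 3 Acly-KD libraries (105 to 154 CPM) than in the controls (221 to 327 CPM), and the groups overlap for Phkg2 and Phka2.

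The muscle alpha subunit gene Phka1 (chromosome X, 102513975 to 102644246) and the beta subunit gene Phkb (chromosome 8, 85840959 to 86061376) have no exon of a counted feature opposite to them, and their own rows were nearly empty. Phka1 had 0, 0 and 0 reads in Acly-KD and 1, 3 and 1 in control, and Phkb had 1, 0 and 1 in Acly-KD and 1, 0 and 1 in control. With so few reads at these rows a difference in either was not detectable, since 3 reads correspond to 3.55 to 10.9 CPM per library. If the strands are exchanged, these rows do not count the mRNA of the genes. Of the 2 subunit genes described beside Phkg1 in the reading of mRNA, Phkg2 and Phka2, 0 passed the test at an adjusted p of 0.05 in edgeR or DESeq2, against 0.413% of all genes in edgeR. An unadjusted p under 0.05 in edgeR was found for 0 of the 2 and for 125 of all 1453 genes.

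Pygm, muscle glycogen phosphorylase, the enzyme that phosphorylase kinase switches on, was the one member tested at its own row (chromosome 19, 6384399 to 6398459). It has no opposite exons, and its reads are of the strand opposite to its message if the strands are exchanged. The row held 2, 13 and 48 reads in Acly-KD and 16, 36 and 20 in control, or 3.07, 31.7 and 60.0 CPM against 58.3, 42.6 and 28.8 CPM. Acly-KD contained both the lowest and the highest library. The log2 fold change was -0.37 with a 95% interval from -2.00 to 1.27 (adjusted p = 0.965 in edgeR), without Acly-KD replicate 1 it was 0.22, and without Acly-KD replicate 3 it was -1.38. The brain form of phosphorylase, Pygb, showed a like spread at its own row, 10.7, 34.2 and 42.5 CPM in Acly-KD and 51.0, 41.4 and 24.4 CPM in control (95% interval of the log2 fold change -1.42 to 0.68, adjusted p = 0.965 in edgeR).

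Acly-KD replicate 1 was also the lowest library, and replicate 3 the highest, for heart muscle markers read in the same way. The summed level of the 4 markers with no opposite exons (Tnnt2, Tnni3, Actc1 and Ryr2) was 1371, 2796 and 4785 CPM in Acly-KD and 4570, 4139 and 3926 CPM in control. Per 1000 reads of these markers Pygm had 2.24, 11.4 and 12.5 reads in Acly-KD and 12.7, 10.3 and 7.33 in control. Acly-KD replicates 2 and 3 lay within the range of the controls on this scale, and replicate 1, with its 2 reads, lay below. The part of this in the value of Pygm was not tested.

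**Figure D4:**
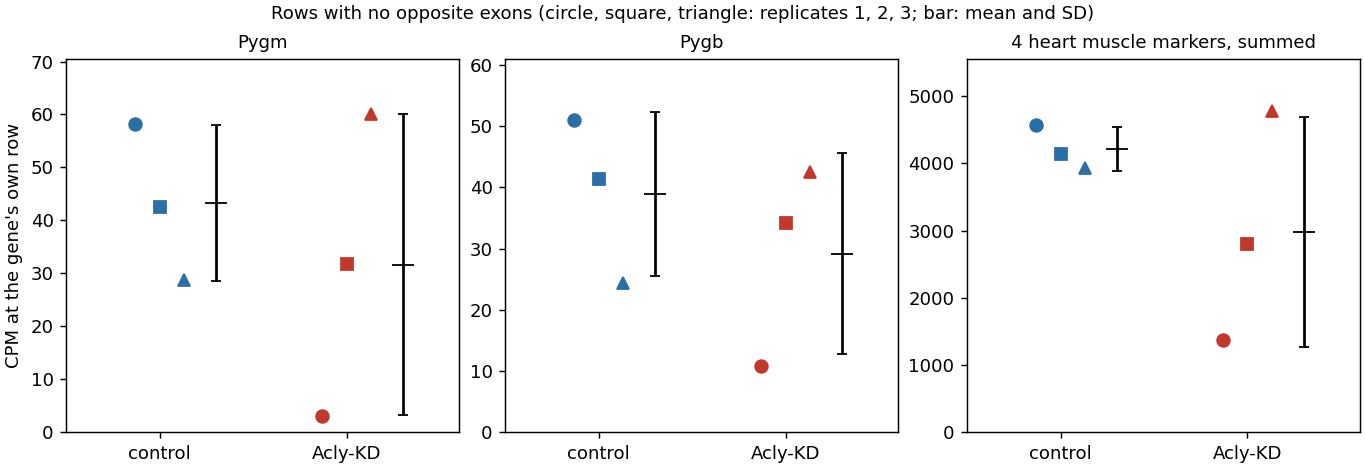
CPM at the gene's own row (y axis, from 0) for Pygm, Pygb and 4 summed heart muscle markers, none of which has opposite exons; bars give the mean and SD of each group. Acly-KD replicate 1 (circle) is lowest in all 3 panels and Acly-KD replicate 3 (triangle) is the highest library for Pygm and for the markers.

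On the synthesis side 0 of the 2 genes tested in the reading of mRNA, Ugp2 and Pgm1, passed in edgeR, beside 6 of all 1453 genes. Ugp2 encodes UDP-glucose pyrophosphorylase, which makes the glucose donor of glycogen synthesis. Through Gm12043 it read 1399, 1235 and 1094 CPM in Acly-KD and 989, 1026 and 1180 CPM in control. The groups overlapped, and the log2 fold change was 0.22 (95% interval -0.07 to 0.50, adjusted p = 0.679 in edgeR). Gm12043 held 28449 reads per kb of exon shared with Ugp2, against 643 for Sumf2 per kb shared with Phkg1 and 476 for Ccdc189 per kb shared with Phkg2, each summed over the 6 libraries. Nearly all exon bases of Gm12043 lie outside the shared stretch, so where its reads lie relative to Ugp2 cannot be read from these tables. The own row of Ugp2 had 3, 0 and 11 reads in Acly-KD and 7, 14 and 8 in control.

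Gys1, muscle glycogen synthase, adds glucose to the growing chain. The opposite feature Ruvbl2 read 448, 515 and 449 CPM in Acly-KD and 360, 456 and 552 CPM in control, as deposited. Acly-KD lay within the range of the controls, and the log2 fold change was 0.03 (95% interval -0.34 to 0.40, adjusted p = 0.977 in edgeR). Its sign turned with the scaling, to -0.02 with library totals. The own row of Gys1 held 3, 5 and 8 reads in Acly-KD and 3, 4 and 7 in control. Pgm1 read 1757, 2028 and 2156 CPM in Acly-KD and 1608, 1832 and 2061 CPM in control, with overlapping groups and a 95% interval from -0.17 to 0.38 (adjusted p = 0.910 in edgeR). It was read through Itgb3bp, with 8.59% of the exon bases of Itgb3bp shared, and reads from the rest may belong to other transcripts.

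The remaining members, Gyg, which encodes glycogenin, the primer of the chain, and Gbe1, the branching enzyme, have no opposite feature. Gyg (chromosome 3, 20122084 to 20155317) had 2, 3 and 2 reads in Acly-KD and 2, 10 and 0 in control. Gbe1 (chromosome 16, 70313949 to 70569716) had 0, 0 and 2 reads in Acly-KD and 1, 0 and 1 in control. Summed over the 6 libraries and per kb of exon, own rows held 42.0 reads for Pygm, 14.0 for Ugp2, 8.11 for Gyg, 6.26 for Gys1, 4.76 for Phkg1, 0.799 for Phka1, 0.747 for Gbe1 and 0.539 for Phkb. For Phka1, Phkb, Gbe1 and Gyg these files hold too few reads for a comparison.

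The genes that act on these enzymes were taken from 6 lists of 58 glycogen genes and signals, of which 12 could be tested in the reading of mRNA and 9 at their own rows, while 41 could be tested in neither. Apart from Phkg1, 11 genes were tested in the reading of mRNA, 5 with values above zero and 6 below, with a median log2 fold change of -0.05, beside 0.01 over all 1453 genes. Of these 11, 0 passed the test by edgeR and 0 by DESeq2, beside 6 and 4 of all 1453 genes, and 0 had an unadjusted p under 0.05 in edgeR, beside 125. Groups did not overlap for 1 of the 11, Prkag1, beside 14.7% of all genes. At own rows 0 of 9 pathway genes passed in edgeR, as did 0% of the 2952 features, with 180 features at an unadjusted p under 0.05 in edgeR and 0 passing in DESeq2. Groups did not overlap for 0 of these 9 genes, beside 11.4% of the 2952 features. Among Pygm and the 3 opposite features they did not overlap for Sumf2 alone, whose difference with that of Phkg1 drew attention to the group.

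Of the 17 regulators of the glycogen enzymes 2 could be tested in the reading of mRNA, and 0 passed in edgeR, beside 6 of all 1453 genes. Ppp1ca was read through Rad9a, with 9.53% of the exon bases of Rad9a shared. Gsk3a was read through 9130221H12Rik, with 52.0% shared. Reads from the other exon bases of these features may belong to other transcripts. Ppp1ca encodes a catalytic subunit of protein phosphatase 1, which opposes phosphorylase kinase, and read 1448 ± 76.3 CPM in Acly-KD and 1634 ± 144 CPM in control (SD, n = 3 each), which leaves its log2 fold change between -0.44 and 0.08 (95% interval). Gsk3a, a kinase that restrains glycogen synthase, read 1910 ± 105 and 1977 ± 14.3 CPM (SD, n = 3 each), with an interval from -0.30 to 0.20. Both groups of libraries overlapped for each gene, and the adjusted p in edgeR was 0.721 and 0.939. At their own rows both had values of the other sign with wider intervals. The log2 fold change there was 0.73 for Ppp1ca (-0.59 to 2.05) and 0.34 for Gsk3a (-0.27 to 0.96). If the strands are exchanged, these own rows are no second measure of the genes.

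Among the cyclic AMP and AMPK signals 0 of the 4 genes tested in the reading of mRNA passed in edgeR, beside 6 of all 1453 genes. Gnas was read through Gm20721, Adcy6 through Gm29331, Prkag1 through B130046B21Rik and Prkag2 through Prkag2os2. Of the exon bases of B130046B21Rik 40.3% are shared with Prkag1, and of those of Prkag2os2 55.5% with Prkag2. Reads from the rest may belong to other transcripts. Gnas, the stimulatory G protein that couples adrenergic receptors to cyclic AMP, read 52160 ± 3710 CPM in Acly-KD and 50265 ± 2439 CPM in control (SD, n = 3 each), with an interval from -0.12 to 0.23. Adcy6, a heart adenylyl cyclase, read 1834 ± 74.4 and 2063 ± 269 CPM (SD, n = 3 each), with an interval from -0.43 to 0.10. Prkag1, a regulatory subunit of the energy sensor AMPK, read 3337, 3159 and 3190 CPM in Acly-KD and 3585, 3636 and 3525 CPM in control. Its groups did not overlap, and the log2 fold change was -0.15 (95% interval -0.38 to 0.08, adjusted p = 0.734 in edgeR). For Prkag2, the AMPK subunit gene whose mutations are known to cause glycogen storage in the heart, the interval was -0.44 to 0.75. For Slc2a1, a glucose transporter gene read through Gm12868 with 105 shared bases, it was -1.04 to 0.32. Those bases are 25.2% of the exon bases of Gm12868, and reads from the rest may belong to other transcripts. The sign of the value of Slc2a1 turned without control replicate 2. Tested at their own rows alone were Prkar1a, a regulatory subunit gene of protein kinase A (95% interval -1.72 to 1.18), Akt1, a kinase gene of insulin signalling (-1.64 to 1.00), and Hk2, a hexokinase gene (-1.66 to 0.49). In edgeR 0 of these passed, as did 0% of the 2952 features. The values of Prkar1a and Akt1 turned in sign without Acly-KD replicate 1, and that of Akt1 also without control replicate 1. If the strands are exchanged, the own rows of Prkar1a, Akt1 and Hk2 do not count their message.

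**Figure D5:**
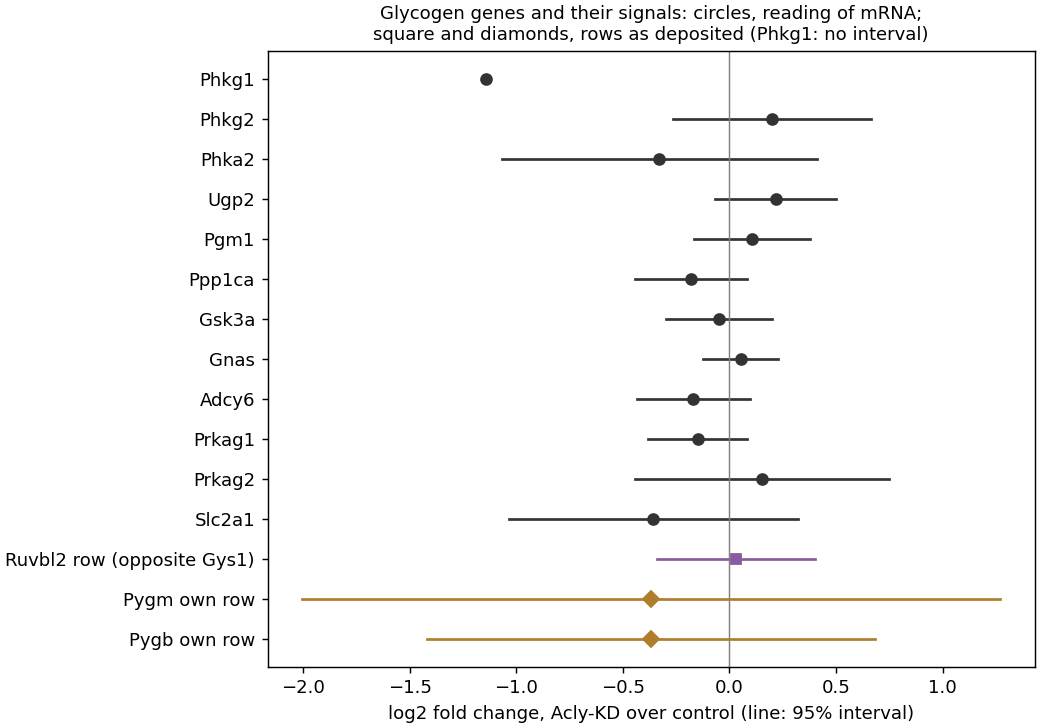
Log2 fold change, Acly-KD over control, with its 95% interval for 12 glycogen and signal genes in the reading of mRNA (circles), the Ruvbl2 feature opposite to Gys1 (square) and the own rows of Pygm and Pygb (diamonds). Phkg1 (log2 fold change -1.14) is drawn without an interval, as a description, and the intervals of the other genes and rows shown include zero.

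The genes whose levels ran most alike to Phkg1 across the 6 libraries were Txnip (Pearson r = 0.985), Srsf1 (0.978), Gm15787 (0.967), Gm22100 (0.962) and Tor1aip1 (0.960), out of 1452 compared on log2(CPM + 1). For each of these all Acly-KD libraries lay below all controls, which follows from choosing them for their likeness to Phkg1. The 6 points share their libraries and depth, and with so many genes compared the order is a description only. Txnip, which encodes an inhibitor of glucose uptake, read 22575, 22409 and 23416 CPM in Acly-KD and 26848, 29926 and 30690 CPM in control.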

How the data were processed

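RNA sequencing counts of 6 libraries (3 Acly-KD, 3 control) were used as deposited. The authors deposited whole-number read counts per Ensembl feature. FastQC, TopHat2, SAMtools, HTSeq, DESeq2 and mm10 are named, per the submitters' processing notes. The strand that HTSeq counted was not given in the sources used here. Rows that name no gene held 97.4% to 97.7% of each table and were left out. Exon overlaps came from GENCODE M21, which held 45229 of the 46078 features. In the reading of mRNA, a gene took over the counts of a feature on the other strand where it made up 80% or more of that feature's opposite exon overlap, shared 50 bases or more and had a lower count itself or none.

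Both tables were fitted whole in edgeR 4.0.16 (R 4.3.3; TMM; filterByExpr, minimum count 10; quasi-likelihood test, robust; Benjamini-Hochberg adjustment, threshold 0.05, two-sided), and again with DESeq2 1.42.0, after tests on simulated data. The limit for a count of 0 was 3 reads, and limits cover counting error only. The spread of Phkg1 and Sumf2 across settings was judged against their SE times the square root of 3. Alternatives changed the tool, scaling, filter, replicate block, shared bases and libraries. The named genes are the 8 members, their opposite features, up to 4 tested genes per pathway list and reading, those that passed or else the most abundant (1 gene is not reported here), and the 5 genes most alike to Phkg1. Members and lists were chosen with earlier results of these data known.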

Additional observations from a re-analysis of the deposited data

How the results depend on the processing

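In the reading of mRNA 6 genes passed in edgeR (3 higher, 3 lower in Acly-KD). The number was 0 with a minimum count of 30 (98 at an unadjusted p under 0.05), 30 without a filter, 3 with at least 200 shared bases, and, in alternatives chosen after seeing the data, 2 with uniquely aligned reads as library size and 1 without control replicates 2 and 3. Leaving out each library gave 1 to 20. As deposited 0 features passed, 3 without a filter, and 0 to 69 with each library left out, the highest without Acly-KD replicate 3. The cause was not tested. With the replicate number as a block 12 genes passed in the reading of mRNA and 0 features as deposited. Libraries with the same number showed no positive correlation of their deviations (-0.04 to -0.02 in the reading of mRNA and -0.18 to -0.02 as deposited). With so few libraries and low counts this cannot exclude that the numbers pair them.

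Of the values of single tested genes, 268 kept their direction and side of the threshold and 12 changed sign. Of the values of Phkg1 and Sumf2, given without a test, 28 kept their direction and moved by less than their spread, and 1 moved by more (Sumf2, -0.68 without control replicates 2 and 3). Both genes were read from the same reads and the settings share libraries, so these values are not independent and are a description only. The sign of the log2 fold change of Gnas turned with uniquely aligned reads (-0.024). That of Slc2a1 ran from -0.59 to 0.0095 with each library left out, the highest without control replicate 2, and was 0.68 without control replicates 2 and 3. That of Ruvbl2 was -0.025 with library totals and -0.068 with uniquely aligned reads, and ran from -0.052 to 0.20 with each library left out, below zero without Acly-KD replicate 2 (-0.02) or control replicate 1. That of Pygm ran from -1.38 to 0.22 and that of Pygb from -0.78 to 0.061, both above zero without Acly-KD replicate 1. That of Prkar1a ran from -0.52 to 0.18, above zero without Acly-KD replicate 1, and that of Akt1 from -0.82 to 0.23, above zero without Acly-KD replicate 1 (0.12) or control replicate 1. Phka1, Phkb, Gbe1 and Gyg had too few reads at their own rows for a test.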
